A study of Mus musculus with 8 samples.

Results

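The complement genes C1ra, C1s1, C4b, C2, C3, Cfb, Cfd, Serping1 and Cd55 were followed in osteoblastic cells, the cells that lay down bone matrix, from leukemic and healthy mice. They were taken by gene symbol from a table of FPKM values, in which a fragment count is divided by transcript length and by library total, and are 9 of the 17068 genes in it. They were chosen with earlier results of the same libraries known, so their differences between leukemic and control are given as a description, with no test. All cells were sorted by FACS straight from long bones digested with collagenase IV, and every mouse was a C57BL/6J female aged about 10 weeks. The 4 leukemic libraries came from mice with BCR-ABL+ B-ALL, a leukemia of B-cell precursors driven by a fusion kinase, and the 4 control libraries from healthy mice; the series concerns blocking sclerostin, a secreted inhibitor of bone formation, but no such treatment is named for these samples. The labels do not name the sort markers, how the leukemia was started, or whether each library came from a separate animal, so a p-value here covers the spread among the samples as given, and that spread may be technical. Of the 9 genes, 8 passed the filter of 1 FPKM in at least 4 libraries, and these 8 were above 1 FPKM in all 8 libraries. Cfd was not tested.

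Complement is a cascade of blood and tissue proteins that marks microbes, dying cells and immune complexes. In the classical pathway C1q binds the target and switches on the proteases C1r and C1s, which cut C4 and C2 into an enzyme that cleaves C3; the alternative pathway reaches the same step through factor B and factor D. The liver makes most of the circulating proteins, but stromal cells make many of them locally, and inflammatory cytokines are known to raise several, C3 and factor B among them.

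The promoters of the central component and of both C1 proteases are shown here because these 3 genes had the largest positive differences among the members. C4b was close behind C1ra, with log2 differences of 0.73 and 0.74, but no promoter of C4b was at hand. The promoters shown are 300 bases each from RefSeq on GRCm38.p6, from upstream of the gene start to just past it, 5′ to 3′ on the strand of the gene. Capitals mark matches, on either strand, to a C/EBP consensus (TTGCNNAA) or a STAT consensus (TTCNNNGAA). C3 lies on the minus strand at chr17:57228087-57228386, C1ra on the plus strand at chr6:124512371-124512670 and C1s1 on the minus strand at chr6:124542310-124542609.
C3: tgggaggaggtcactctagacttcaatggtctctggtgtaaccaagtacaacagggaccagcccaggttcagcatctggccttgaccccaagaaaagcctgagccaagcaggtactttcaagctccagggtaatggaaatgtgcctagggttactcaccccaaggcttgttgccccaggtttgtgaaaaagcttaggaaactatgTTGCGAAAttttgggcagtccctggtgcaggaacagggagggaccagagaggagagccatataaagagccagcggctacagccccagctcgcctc
C1ra: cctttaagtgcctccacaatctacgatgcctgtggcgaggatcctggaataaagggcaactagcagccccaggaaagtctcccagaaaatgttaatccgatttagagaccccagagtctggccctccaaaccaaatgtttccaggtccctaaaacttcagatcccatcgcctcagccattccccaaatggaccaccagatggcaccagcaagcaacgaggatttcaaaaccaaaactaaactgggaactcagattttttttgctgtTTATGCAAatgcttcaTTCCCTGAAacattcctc
C1s1: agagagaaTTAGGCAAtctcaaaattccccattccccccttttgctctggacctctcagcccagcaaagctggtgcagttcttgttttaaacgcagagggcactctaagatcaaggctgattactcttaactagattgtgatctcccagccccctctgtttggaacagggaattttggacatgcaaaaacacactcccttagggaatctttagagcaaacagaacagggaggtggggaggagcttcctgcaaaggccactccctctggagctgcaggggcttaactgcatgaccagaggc
The C/EBP letters began at position -45 relative to the start in C3, at 17 in C1ra and at -242 in C1s1, where a later RefSeq start of C1s1 leaves them outside the window. C1ra also held the STAT letters at position 33, which did not overlap its C/EBP match. Promoters were at hand for 5 of the 9 members (also Cfd and Cd55, neither of which matched), and 3 of the 5 held the C/EBP letters, against 10.8% of 32851 mouse promoters of the same length. That share is per promoter, whereas a member counted when any of its promoters matched, as for C1s1, so the figures are not strictly alike. The STAT letters stood in 8.3% of all promoters. The interferon-stimulated response element (ISRE) consensus stood in 3.44% and an NF-kB consensus in 8.46% of all promoters, and in 0 of the 5. A match is a run of letters and not a measured binding site.

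The libraries expressed the osteoblast genes at high levels. The 10 markers of this cell type summed to 44460 to 77980 FPKM in leukemic and 44890 to 90400 FPKM in control libraries, led by Spp1 (osteopontin). Of the 10, 9 had a negative log2 difference, from -0.60 for Col1a2 (a chain of type I collagen), and Bglap (osteocalcin) stood at 0.20; the median was -0.27, and limma called 0 of them, with 1, Col1a2, lower at an unadjusted p under 0.05. The part of this shift in the members' differences was not tested. Summed FPKM over all genes of the table ran from 456200 to 632100, and 10911 to 11162 genes per library reached 1 FPKM. Libraries also differed in how a gene's deviation from its mean ran with transcript length. Across genes the Spearman rho was -0.354, -0.346, -0.112 and 0.328 for the leukemic libraries, numbered 1 to 4, and the controls had 0.039, 0.144, 0.124 and 0.35. Short transcripts were thus high in leukemic libraries 1 and 2, and long ones in leukemic library 4 and control library 4. Values without leukemic libraries 1 and 2 are given beside the results, and values with this trend removed from every library after them. The table holds no counts, so read depth is unknown.

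The C1 proteases were abundant and had higher means in the leukemic libraries. C1r, encoded by C1ra (gene ID 50909, chr6:124512621-124523440), is the protease that activates C1s inside the C1 complex. In library order 1 to 4, which is kept below, C1ra had 88.8, 128, 125 and 153 FPKM in the leukemic group, and the controls had 101, 53.0, 104 and 49.1 FPKM. Leukemic libraries 2 to 4 lay above every control library, and leukemic library 1 lay among the controls. The means were 123.6 ± 26.3 and 76.8 ± 29.8 FPKM (SD, n = 4 each), a log2 difference of 0.74 (SE 0.29), or 0.92 without leukemic libraries 1 and 2. C1s, encoded by C1s1 (gene ID 50908, chr6:124530344-124542392), is the protease that cuts C4 and C2. C1s1 had 59.0, 92.3, 91.4 and 99.9 FPKM in the leukemic and 64.0, 40.9, 56.0 and 34.6 FPKM in the control libraries. The arrangement was the same, with leukemic library 1 inside the control range and the other leukemic libraries above it. Its means were 85.6 ± 18.2 and 48.9 ± 13.5 FPKM (SD, n = 4 each), which is 1.75-fold, with a log2 difference of 0.81 (SE 0.24), or 0.99 without leukemic libraries 1 and 2.

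The recognition subunit that these proteases need was scarce in the same cells. Of the 3 C1q chains, C1qc stayed under 1 FPKM in all 8 libraries, C1qa was listed at 0 in leukemic library 4 and control library 1 and at most at 1.79 FPKM, and C1qb averaged 1.19 ± 0.846 and 0.935 ± 0.712 FPKM (SD, n = 4 each). C1q is known as a product mainly of macrophages. Of 8 macrophage markers, Adgre1, Csf1r, Mrc1, Fcgr1 and Mpeg1 were under 1 FPKM in every library, while in leukemic and control libraries Lyz2 averaged 82.9 and 43.0 FPKM, Cd14 28.2 and 28.6 FPKM, and Cd68 6.48 and 8.27 FPKM.

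The substrates of C1s went in opposite directions. C4b (gene ID 12268, chr17:34728139-34743902) encodes complement C4, whose fragment binds covalently to the target. C4b had 50.5, 37.4, 66.6 and 75.1 FPKM in the leukemic and 44.7, 27.2, 55.0 and 17.7 FPKM in the control libraries. Only leukemic libraries 3 and 4 exceeded all controls. The means were 57.4 ± 16.8 and 36.1 ± 16.8 FPKM (SD, n = 4 each), with a log2 difference of 0.73 (SE 0.35), or 1.07 without leukemic libraries 1 and 2 and 0.44 without control library 4. C2 (gene ID 12263, chr17:34862602-34882100), the protease part of the C3-cleaving enzyme of the classical pathway, was the member with the largest negative difference. Its FPKM was 2.77, 4.91, 3.40 and 2.89 in the leukemic and 4.94, 6.18, 8.77 and 3.64 in the control libraries. Leukemic libraries 1, 3 and 4 lay below all controls, and leukemic library 2 lay between control library 4 and control library 1. The means were 3.49 ± 0.984 and 5.88 ± 2.19 FPKM (SD, n = 4 each), with a log2 difference of -0.59 (SE 0.26), or -0.68 without leukemic libraries 1 and 2. C2 lay below C1ra, C1s1 and C4b in all 8 libraries.

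C3 was the member whose groups did not overlap. C3 (gene ID 12266, chr17:57203967-57228136) encodes the protein on which all activation pathways converge. Leukemic libraries had 48.5, 95.9, 92.4 and 104 FPKM of C3, and control libraries had 23.4, 17.1, 29.6 and 11.1 FPKM. The lowest leukemic value, in library 1, was above the highest control value, in library 3. The means were 85.3 ± 25.1 and 20.3 ± 7.96 FPKM (SD, n = 4 each), and the log2 difference was 2.04 (SE 0.32), with 2.30 when leukemic libraries 1 and 2 were left out. Among all 17068 genes C3 ranked 3100 by mean FPKM in the control and 904 in the leukemic libraries. In 8 members tested, 1 had all leukemic values above all control values, where 0.954% of the 11214 genes tested did, and 0 had all of them below, where 2.9% did. Over all genes those shares are 107 genes above and 325 below, which became 60 and 537 when values were rescaled to TPM and 163 and 239 when the trend with transcript length was removed; C3 stayed without overlap in each. Because this contrast chose the members, nothing is read from those shares.

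**Figure D1:**
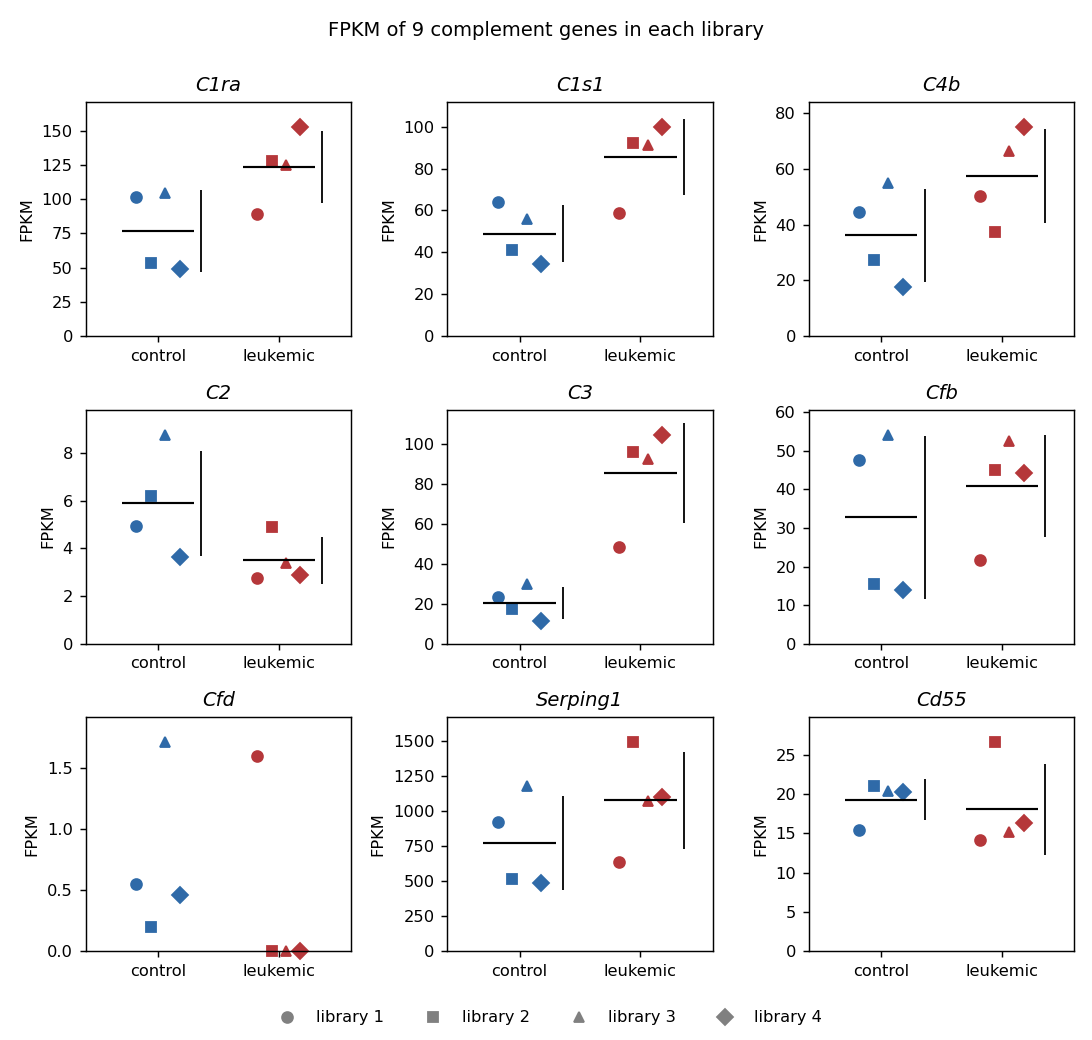
FPKM of the 9 complement genes (y axis, from 0) in 4 control and 4 leukemic libraries (x axis), with the library number as the symbol; horizontal lines are means and vertical lines 1 SD, left out for Cfd, which has values listed at 0. For C3 the leukemic points, from 48.5 to 104 FPKM, all lie above the control points, from 11.1 to 29.6 FPKM, while the groups overlap in the other panels.

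Factor B and factor D, the other parts of the alternative pathway, showed no such separation. Cfb (gene ID 14962, chr17:34856374-34862514), the protease precursor that joins C3b, had 21.8, 45.0, 52.6 and 44.2 FPKM in the leukemic and 47.6, 15.4, 54.2 and 14.0 FPKM in the control libraries. The control libraries fell into a high pair, 1 and 3, and a low pair, 2 and 4, and the leukemic values lay within their range. The means were 40.9 ± 13.3 and 32.8 ± 21.1 FPKM (SD, n = 4 each), and the log2 difference of 0.49 (SE 0.46) ran from 0.18 without control library 4 to 0.80 without control library 3. Cfd (gene ID 11537, chr10:79890853-79892655), which encodes adipsin, the protease that cuts factor B, was listed at 1.6 FPKM in leukemic library 1 and at 0 in the other 3 leukemic libraries. Control libraries 1 to 4 had 0.55, 0.20, 1.71 and 0.46 FPKM of Cfd, so no fold is given. Adipsin is known as an adipocyte product. Other genes known from adipocytes were unequal in level, as Adipoq (adiponectin) averaged 367.1 ± 304.7 FPKM in leukemic and 541.9 ± 370.6 FPKM in control libraries, Fabp4 averaged 2.31 ± 1.61 and 1.97 ± 1.36 FPKM (SD, n = 4 each), and Plin1 reached at most 0.38 FPKM in any library. Cfp, encoding properdin, which stabilises the alternative-pathway enzyme, averaged 1.68 ± 0.793 and 1.79 ± 0.303 FPKM (SD, n = 4 each).

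Serping1 (gene ID 12258, chr2:84765360-84775444), which encodes the C1 inhibitor that blocks C1r and C1s, dominated the group by level. Its FPKM was 638, 1491, 1072 and 1103 in the leukemic and 919, 513, 1179.99 and 485 in the control libraries. Only leukemic library 2 exceeded all controls. The means were 1076 ± 348 and 774 ± 335 FPKM (SD, n = 4 each), with a log2 difference of 0.51 (SE 0.35), or 0.59 without leukemic libraries 1 and 2 and 0.32 without control library 4. Serping1 ranked 52 of all genes in the leukemic and 66 in the control libraries and made up 69.0% to 78.2% of the summed FPKM of the 9 members in each library. Cd55 (gene ID 13136, chr1:130429798-130465009) encodes decay-accelerating factor, a membrane protein that breaks up the C3-cleaving enzymes on the cell's own surface. Its FPKM was 14.1, 26.6, 15.1 and 16.3 in the leukemic and 15.4, 21.1, 20.4 and 20.2 in the control libraries. Leukemic library 2 was the highest and leukemic library 1 the lowest, so the controls lay inside the leukemic range. The means were 18.04 ± 5.76 and 19.3 ± 2.63 FPKM (SD, n = 4 each), a log2 difference of -0.12 (SE 0.22), or -0.27 without leukemic libraries 1 and 2.

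Across the 8 members tested the log2 difference was positive in 6, where 46.4% of all tested genes were positive, and its median was 0.62, against -0.02 over all tested genes. The members were chosen with this contrast known, so nothing is read from that comparison. The authors' deposited table gives log2 ratios of leukemic over control with the same signs, from 2.19 for C3 to -0.74 for C2, with 0.84 for C1s1, 0.72 for C1ra, 0.70 for C4b, 0.50 for Serping1, 0.34 for Cfb and -0.10 for Cd55. Those ratios come from the same 8 libraries, so equal signs are no separate evidence. With the trend in transcript length removed from every library, the log2 differences were 2.14 for C3, 0.84 for C1s1, 0.83 for C4b, 0.77 for C1ra, 0.52 for Cfb, 0.51 for Serping1, -0.09 for Cd55 and -0.55 for C2. C3 stood at 1.93 without leukemic library 4 and at 1.80 without control library 4. In these bulk samples fewer cells of a type and less RNA per cell cannot be told apart.

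Ratios to C1s1 within a library are given as a description. C1s1 was taken as the denominator after its values were seen, because it is measured well above the filter and had the smallest SE of the positive members; it was itself higher in the leukemic group by 0.81 on the log2 scale. The C1ra to C1s1 ratio of FPKM was 1.51, 1.38, 1.37 and 1.53 in leukemic and 1.58, 1.29, 1.86 and 1.42 in control libraries, ranges that overlap. The C3 to C1s1 ratio was 0.822, 1.04, 1.01 and 1.05 in leukemic and 0.365, 0.418, 0.528 and 0.321 in control libraries. Per unit of C1s1 there was thus more C3 in every leukemic than in any control library, with mean ratios of 0.980 ± 0.106 and 0.408 ± 0.0893 (SD, n = 4 each). The C2 to C1s1 ratio was 0.0470, 0.0532, 0.0372 and 0.0289 in leukemic and 0.0773, 0.151, 0.157 and 0.105 in control libraries. Every leukemic ratio was below every control ratio, whereas the FPKM of C2 alone overlapped between the groups. Dividing by C1s1, which was higher in the leukemic group, lowers leukemic ratios by construction, so nothing is read about C2 from this. The share of all tested genes whose ratio to C1s1 separates the groups was not counted. The ratios of C4b, Cfb, Serping1 and Cd55 to C1s1 overlapped between the groups.

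**Figure D2:**
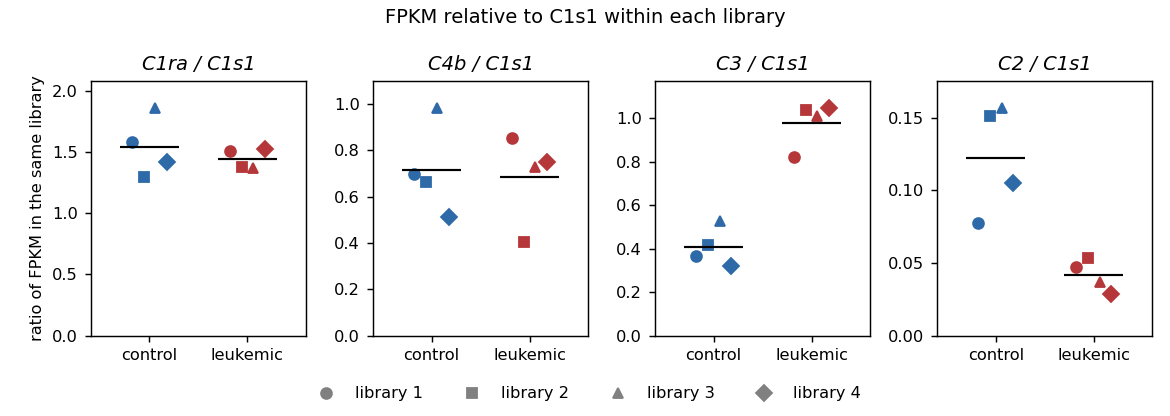
Ratio of the FPKM of C1ra, C4b, C3 and C2 to that of C1s1 in the same library (y axis, no unit, from 0) for 4 control and 4 leukemic libraries (x axis), with the library number as the symbol and the group mean as a line. The C3 ratio lies between 0.321 and 0.528 in control and between 0.822 and 1.05 in leukemic libraries; the C2 ratio lies lower in all leukemic libraries, and the C1ra and C4b ratios overlap.

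By level in the control libraries the order was Serping1, C1ra, C1s1, C4b, Cfb, C3, Cd55, C2 and Cfd. The ranges of Serping1 and C1ra did not overlap, nor did those of Cd55 and C2 or of C2 and Cfd, while each neighbour from C1ra down to Cd55 overlapped the next in range. Within each library, C1ra exceeded C1s1 and C1s1 exceeded C4b in 4 of 4 control and 4 of 4 leukemic libraries. Cfb exceeded C3 in 3 of 4 control libraries and in 0 of 4 leukemic libraries. C3 exceeded Cd55 in 2 of 4 control and 4 of 4 leukemic libraries.

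Most of the members shared an order of libraries inside each group. Control libraries 1 and 3 were the highest pair of the 4 controls in 6 of 8 members, against 24.7% of all tested genes, the exceptions being C2 and Cd55. Control library 4 was the lowest control in 7 of 8 members, against 30.9% of all tested genes, and leukemic library 1 the lowest leukemic in 7 of 8, against 28.3%. These orders were named after the values of the members were seen, so nothing is read from the higher shares in the members. Among the 16 other complement genes tested, these shares were 43.8% for the control pair, 31.2% for control library 4 and 43.8% for leukemic library 1. C8g and Il6, which are not members, had each of these orders, so they were not particular to the members. The sum of 10 markers of marrow adipogenic stroma, led by Cxcl12 (a chemokine that holds blood progenitors in the marrow), had a like order: 5640 and 7191 FPKM in control libraries 1 and 3, 2715 and 1707 FPKM in control libraries 2 and 4, 2867 FPKM in leukemic library 1, and 5932, 3854 and 3196 FPKM in leukemic libraries 2 to 4. Between the groups those sums overlapped, and 4 of the 9 tested markers had a positive difference. The sum of the neutrophil markers had a like order too. It was 66.8 and 74.0 FPKM in control libraries 1 and 3, 47.0 and 12.0 FPKM in control libraries 2 and 4, and lowest among the leukemic libraries in library 1, at 11.5 FPKM. Control libraries 1 and 3 were also the highest controls in the B-lineage and endothelial sums, where leukemic library 1 was not the lowest. The part of any of these cells in the members' levels was not tested.

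The rest of the complement system was mostly low or showed no call. Of 53 other complement symbols in the lists, 46 were in the table and 16 were tested; limma gave 0 of these 16 an adjusted p under 0.05, as it did for 0.0% of all genes tested, with 0.144 the lowest adjusted p. At an unadjusted p under 0.05, C1rl was higher and Colec11 and C5ar1 were lower, where 2.49% of all genes were higher and 4.13% lower. The median log2 difference of the 16 was 0.15, with 11 positive; it was -0.09 without leukemic libraries 1 and 2 and -0.06 without leukemic library 2 alone. Groups did not overlap for C1rl and Colec12 (leukemic above) and for Colec11 (leukemic below), that is 2 of 16 above and 1 of 16 below, where 0.954% of all tested genes lay above and 2.9% below.

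Among the classical and lectin genes, C1rl, a C1r-like serine protease gene that lies 1978 bases from C1ra, had 6.44 to 8.90 FPKM in leukemic and 4.40 to 6.34 FPKM in control libraries. Its means were 7.56 ± 1.01 and 5.36 ± 1.05 FPKM (SD, n = 4 each; limma log2 difference 0.44, SE 0.19, adjusted p = 0.695). Colec12, a scavenger receptor with a collectin domain, averaged 219.5 ± 15.3 and 174.0 ± 19.8 FPKM (SD, n = 4 each; limma log2 difference 0.34, SE 0.16, adjusted p = 0.695). Colec11, a soluble collectin that starts the lectin pathway, averaged 1.56 ± 0.504 and 3.97 ± 1.35 FPKM (SD, n = 4 each; limma log2 difference -0.94, SE 0.25, adjusted p = 0.587). None of these passed the threshold.

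Other regulators were abundant too. Clu (clusterin, an inhibitor of the membrane attack complex) averaged 4698 ± 800 FPKM in leukemic and 4265 ± 1834 FPKM in control libraries (SD, n = 4 each), a log2 difference of 0.27 (SE 0.39). On the membrane, Cr1l (Crry, the rodent regulator of C3 deposition) averaged 99.6 ± 16.3 and 96.0 ± 12.7 FPKM, and Cd59a, which blocks the attack complex, 29.6 ± 7.36 and 33.9 ± 8.11 FPKM (SD, n = 4 each). Each of these 3 genes overlapped between the groups, with log2 differences of 0.05 for Cr1l and -0.19 for Cd59a.

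The terminal components that were measured were low apart from C6. Hc (the gene for C5), C7 and C9 stayed under 1 FPKM in all libraries, C6 averaged 11.5 ± 8.69 and 10.4 ± 6.47 FPKM, and C8g averaged 2.79 ± 2.56 and 2.00 ± 0.534 FPKM (SD, n = 4 each). Of the receptors, C5ar1, which binds the C5a fragment, averaged 4.99 ± 2.10 FPKM in leukemic and 8.37 ± 1.79 FPKM in control libraries (SD, n = 4 each; limma log2 difference -0.70, SE 0.28, adjusted p = 0.695). C1qbp, a mitochondrial protein that also binds C1q, averaged 39.1 ± 10.9 and 26.6 ± 10.6 FPKM (SD, n = 4 each; limma log2 difference 0.59, SE 0.31, adjusted p = 0.695). In all, 21 of the 46 other genes stayed under 1 FPKM in every library.

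**Figure D3:**
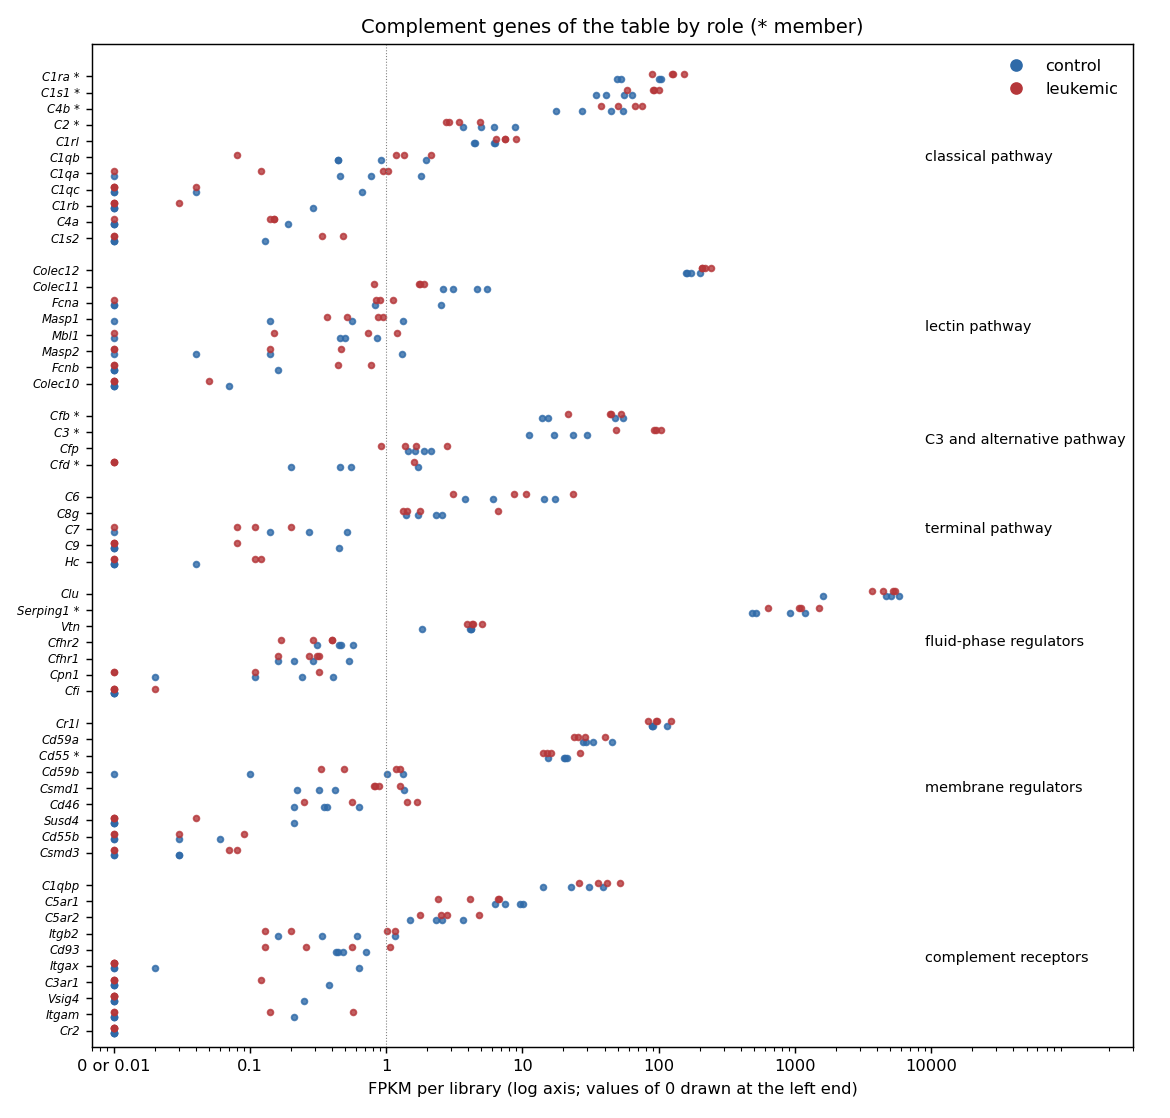
FPKM per library (x axis, log scale, values of 0 drawn at the left end) for complement genes of the table grouped by role (y axis, members starred), in 4 control and 4 leukemic libraries; the dotted line marks 1 FPKM. Clu, Serping1 and Colec12 lie above 100 FPKM in all 8 libraries, while the C1q chains and most terminal components lie near or below 1 FPKM.

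**Figure D4:**
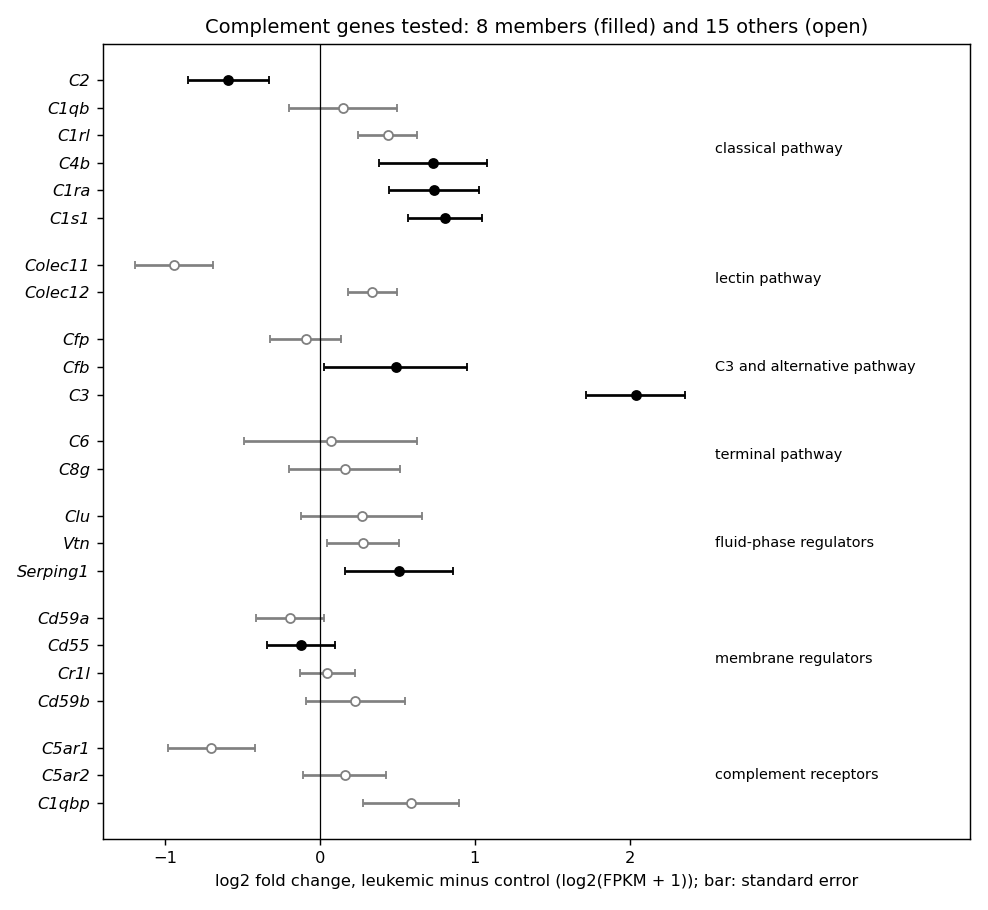
Log2 fold change of leukemic over control on the log2(FPKM + 1) scale (x axis) for the 8 members tested (filled) and 15 of the other complement genes tested (open), grouped by role (y axis), with bars of 1 standard error. C3 stands at 2.04 and C2 at -0.59 among the members; Colec11 at -0.94 is the lowest of the other genes.

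Genes known to drive complement transcription, such as interferon and NF-kB pathway members, gave 0 limma calls among the 15 of 19 tested, with 9 positive and a median log2 difference of 0.12. At an unadjusted p under 0.05, 0 were higher and 1, Nfkb1, was lower. The most abundant were Ifngr1, a chain of the interferon-gamma receptor, at 115.4 ± 32.4 and 101.1 ± 16.8 FPKM, and Irf1, an interferon-induced transcription factor, at 85.2 ± 33.0 and 95.7 ± 38.4 FPKM (SD, n = 4 each). Both overlapped between the groups. Of the C/EBP genes in the list, Cebpb stayed under 1 FPKM in all libraries. Cebpd averaged 3.24 ± 2.44 FPKM in leukemic and 4.215 ± 2.33 FPKM in control libraries (SD, n = 4 each), a log2 difference of -0.33 (SE 0.41), with overlap. The differences in the list ran from -0.60 for Nfkb1 to 0.97 (SE 0.52) for Il6, an inflammatory cytokine, named after its values were seen. Il6 had 16.3, 40.8, 65.4 and 49.4 FPKM in the leukemic and 21.0, 11.9, 51.4 and 9.96 FPKM in the control libraries, and the groups overlapped.

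The genes whose levels across the 8 libraries ran closest to C3 were Cybb, Cxcl9, Zbp1, Hp and Nfkbie. Likeness was the root-mean-square difference of log2(FPKM + 1), centred on its mean over the 8 libraries, among 10934 candidates, and it was 0.255 for Cybb, 0.423 for Cxcl9, 0.430 for Zbp1, 0.459 for Hp and 0.507 for Nfkbie. Cybb, a subunit of the phagocyte NADPH oxidase, had 3.95, 7.88, 8.04 and 7.55 FPKM in the leukemic and 2.05, 1.56, 1.64 and 0.34 FPKM in the control libraries, without overlap. Hp, encoding the acute-phase protein haptoglobin, had 690.08, 1188, 1048 and 731 FPKM in the leukemic and 474, 233, 627 and 140.02 FPKM in the control libraries, also without overlap. Zbp1, a nucleic acid sensor, did not overlap either, at 7.74 to 16.5 against 1.09 to 6.01 FPKM. Cxcl9, an interferon-induced chemokine, and Nfkbie, an inhibitor of NF-kB, overlapped between the groups in leukemic library 1. Of all tested genes, 0.954% had all leukemic values above all controls. Likeness to C3 takes in its gap between the groups, so nothing is read from the separation of genes picked by it. Of the members, C1s1 came nearest to C3 at 0.649, rank 28, then C1ra at rank 40, C4b at 71, Serping1 at 105 and Cfb at 181, whereas Cd55 ranked 6150 and C2 ranked 9889. The measure includes the group difference known when the members were chosen, so nothing is read from these ranks.

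**Figure D5:**
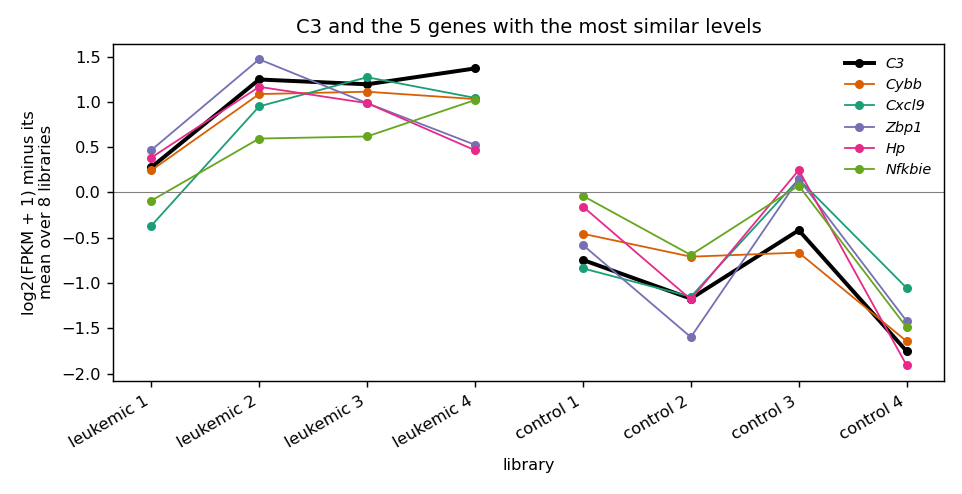
Log2(FPKM + 1) minus the gene's mean over 8 libraries (y axis) in each library (x axis) for C3 and the 5 genes with the smallest root-mean-square difference from it; lines join the points of a gene within a group and carry no order. Cybb follows C3 most closely, at 0.255, and all 6 genes are lowest among the leukemic libraries in library 1.

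By chromosome coordinates, 88 bases separate Cfb from C2, and 2 bases separate Cfb from Nelfe, a subunit of a factor that pauses RNA polymerase. Nelfe averaged 22.5 ± 2.27 and 22.2 ± 2.53 FPKM (SD, n = 4 each), a log2 difference of 0.02. The kit does not mark strand, so reads at such edges cannot be given to a strand, and no annotated gene of the table overlapped a member. Of 28 neighbours that are not members, 17 were tested, with a median log2 difference of -0.04 and a range from -0.37 to 0.54, and 1, C1rl, had all leukemic values above all controls, against 0.954% of all tested genes. The highest differences were those of Prtn3 beside Cfd at 0.54 and Ube2l6 beside Serping1 at 0.52 (0.51 for Serping1 itself), and both overlapped between the groups.

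Near-identical copies took little of the signal in the table. C1rb shared 70.0% of its 31-base words with C1ra, C4a 43.3% with C4b, C1s2 40.4% with C1s1, Cd55b 31.8% with Cd55 and Zbtb12 6.74% with C2. The highest FPKM of any of these copies in any library was 0.48, in C1s2. The split of shared reads between C1ra, C1s1, C4b, Cd55, C2 and their copies, and with transcripts not used here, remains uncertain; Gm16567 shared 90.1% of its words with C1s1, and Gm20547, which reads through both genes, 56.5% with Cfb and 40.5% with C2. C3, Serping1 and Cfd had no such copy at 5% or more.

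Markers of other cells moved with the groups only in part. The macrophage list summed to 71.2 to 162.0 FPKM in leukemic and 67.0 to 90.2 FPKM in control libraries, led by Lyz2 (lysozyme) at 82.9 ± 34.0 and 43.0 ± 5.57 FPKM (SD, n = 4 each), with 5 of its 8 markers under 1 FPKM throughout. The fibroblast list, led by Dcn (decorin), summed to 11960 to 17030 and 6425 to 16120 FPKM, with 9 of 11 tested markers positive. The Schwann cell list summed to 83.1 to 113.2 and 60.8 to 85.0 FPKM; 4 of its 5 tested markers were positive and 3 had all leukemic values above all controls, as did 0.954% of all tested genes. Pan-leukocyte markers summed to 3.41 to 9.60 and 3.01 to 6.80 FPKM, led by Coro1a, neutrophil markers to 11.5 to 63.7 and 12.0 to 74.0 FPKM, led by Ngp, and B-lineage markers to 20.6 to 53.5 and 19.98 to 41.1 FPKM, led by Ebf1. Endothelial markers summed to at most 2.10 FPKM. Ptprc, the pan-leukocyte antigen CD45, was under 1 FPKM in all libraries. Within the B-lineage list the markers differed, and those given here were named after their values were seen. Pax5, Ms4a1 and Rag1 were under 1 FPKM throughout. Vpreb1, a surrogate light chain gene of B-cell precursors, had 3.06, 4.33, 1.21 and 0.26 FPKM in the leukemic and 0.32, 0.32, 0 and 0.53 FPKM in the control libraries. Igll1, its partner chain, had 1.31, 4.12, 0.48 and 0.27 FPKM in the leukemic libraries and was listed at 0 in control libraries 1 to 3 and at 0.50 FPKM in control library 4. For both genes leukemic libraries 1 and 2 were the highest, and leukemic library 4 was below control library 4. Of the 3 tested markers of the list, Cd79a (log2 difference 0.68, SE 0.37) and Blnk (0.71, SE 0.31) were positive and Ebf1 (-0.34, SE 0.35) was negative. The part of these cells in the members' levels was not tested.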

How the data were processed

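RNA from sorted cells with an integrity number above 6.5 was made into libraries with the SMART-Seq v4 kit, which copies RNA from its poly(A) tail and leaves the strand unmarked, per the labels' protocols. The submitters' processing notes list the build GRCm38.p6 and the tools Bowtie2 2.2.5, DESeq2, HISAT2 2.0.4 and RSEM 1.2.8, with no roles or settings. The authors deposited FPKM per library with 2 decimals, together with their group means and a log2 ratio, per the file headers, and the sources used here do not say how that log2 ratio was computed. Low values showed no steps of single reads (at most 2.502% of genes fell in any bin of 0.03 on the log2 ratio of low values), so depth stays unknown and counting intervals are left out. RSEM is known to divide multi-mapped fragments among genes, which can move signal between near-identical copies.

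Values were analysed as log2(FPKM + 1), a scale that understates the change of low genes, for the 11214 genes that reached 1 FPKM in 4 or more libraries (5854 genes were not tested). Groups follow the disease state of each label, 4 leukemic and 4 control, and compared with limma 3.58.1 in R 4.3.3 (trended variance, no covariates, two-sided, Benjamini-Hochberg over all genes tested, threshold 0.05). The limma step was tested on simulated data. Fold changes are leukemic minus control. The members, the complement lists and the marker lists were chosen with earlier results of these data known. The text names every member, the 3 other complement genes with the lowest p per direction, the 2 most abundant per role, the 5 genes closest to C3 and the top marker per list. C1qa, C1qc, Hc, C7, C9, Nfkb1, Il6, Cebpb, Cebpd, Ptprc, Col1a2, Bglap, Fabp4, Plin1, Prtn3, Ube2l6, the other B-lineage and macrophage markers, Adipoq, Nelfe and the copies were added as members of a count or as context. Values of 1 complement gene and 1 marker gene that count in their lists are not reported here. Positions and promoters came from RefSeq tables of GRCm38.p6 (17022 of 17068 gene IDs matched) and transcript lengths and 31-base words from GENCODE M21, whose longest coding transcript gave a length for 99.1% of the genes tested. Alternatives were 2 other pseudocounts (0.1 and 0.5), no filter and a filter of 5 FPKM, 3 other scalings, array weights, the replicate block, removal of the trend with transcript length (lowess, span 0.3) with and without that block, leaving out each library, and leaving out leukemic libraries 1 and 2 together, 20 in all.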

Additional observations from a re-analysis of the deposited data

Results flagged for a closer look

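In 57 groups of 4 libraries examined for the named genes, 6 had 1 library far from the other 3, by a gap, as a share of the group's range, above Dixon's critical value; chance alone gives about 1 in 20. Among the members it was Cd55, at 15.36 FPKM in control library 1, below the other controls. Among other complement genes, Colec11 was low at 0.81 FPKM in leukemic library 4, C8g was high at 6.62 FPKM in leukemic library 2, and Cr1l was high at 114.94 FPKM in control library 2. Among the genes closest to C3, Cybb was low at 3.95 FPKM in leukemic library 1 and Cxcl9 was high at 12.98 FPKM in control library 3.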

How the results depend on the processing

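The log2 differences of the 8 members tested kept their sign in every alternative run. There were 20 runs for each member and 19 for C2, which a filter of 5 FPKM removed. All stayed within 1 SD of the main value, the SD being a gene's spread among libraries within the groups. That bound is wide, as the SD of 0.81 for Cfb and 0.57 for Serping1 exceeded their main differences of 0.49 and 0.51. A changed filter or the replicate block leaves a difference as it was, so such runs could not fail. The differences ran from 1.80 to 2.30 for C3, 0.44 to 1.07 for C4b, 0.55 to 0.92 for C1ra, 0.66 to 0.99 for C1s1, 0.18 to 0.80 for Cfb, 0.32 to 0.75 for Serping1, -0.76 to -0.40 for C2 and -0.32 to -0.03 for Cd55. Members with all leukemic above all control values numbered 1 in the main analysis, 2 with the length trend removed, with size factors or without control library 1, 3 without leukemic library 1 and 4 without leukemic libraries 1 and 2.

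Over all genes, limma called 0 higher and 0 lower in the main fit and 0 lower in every alternative. It called 6 higher with array weights, 3 with the length trend removed, 3 with quantile normalization, 2 as TPM, 1 with no filter, 1 with the length trend removed together with the replicate block, and 0 to 2 with each library left out. C3 was among those called with array weights and with the length trend removed and in no other alternative, the length trend with the block, quantile normalization and TPM included; this contrast chose C3, so nothing is read from these calls. Genes with all leukemic above all control values numbered 107, and 59 with a filter of 5 FPKM, 60 as TPM, 163 with the length trend removed (also with the block), 748 without leukemic libraries 1 and 2, and 146 to 899 with each library left out. Those with all leukemic below numbered 325, and 205 with the 5 FPKM filter, 537 as TPM, 239 with the length trend removed, 1002 without leukemic libraries 1 and 2, and 422 to 699 with each library left out. Fewer libraries make separation easier by construction; the cause of the other shifts was not tested. TPM moved the median of all genes from -0.025 to -0.15. The wider complement list kept 0 calls in all 20 alternatives, and its median of 0.15 became -0.09 without leukemic libraries 1 and 2 and ran from -0.06 to 0.27 with each library left out. The replicate block on its own left the calls at 0, as in the main fit. Deviations of same-numbered libraries correlated at 0.122, -0.047, -0.072 and 0.22, and those of differently numbered ones at -0.295 to 0.217. The highest value was that of the libraries numbered 4, which also had like trends with transcript length (0.328 and 0.35). Whether same-numbered libraries were handled together was not tested, and the numbers are taken as names only.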
